A study of Homo sapiens with 72 samples.

Results

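SPRY2, SPRY4, SPRED1, SPRED2, DUSP4, DUSP5, DUSP6, ETV4, ETV5 and PHLDA1 are genes that ERK signalling is known to induce, or whose products restrain it. They were chosen by name, with earlier results of these data known, and are 10 of the 19324 genes in the deposited count table. All 10 were among the 15470 genes tested. The cells were HEK293 Flp-In T-REx, derived from human embryonic kidney and fitted with a docking site for transgenes, and their poly(A) RNA was sequenced in 72 libraries that form 24 groups of 3 replicates. The 4 lines were WT, CSB_KO, STK19_KO1 and STK19_KO2, the last pair being separate clones. CSB (gene ERCC6) and STK19 are both factors of transcription-coupled repair, which removes UV lesions from transcribed genes. Each line was taken untreated (0 h), 3 h after UV irradiation, and at 4 h and 20 h with the solvent DMSO or with ATRi, which is VE-821 at 3 µM, an inhibitor of the checkpoint kinase ATR. Every group other than 0 h was irradiated, per the series text. The sources used here do not state the UV dose, and the labels disagree on whether the later times start at irradiation or when DMSO or ATRi was added. No group that received the inhibitor without UV, and no unirradiated group of a later time, was analysed here. CSB_KO is a single clone and WT the only unedited line, so a trait of a clone and an effect of the missing gene cannot be told apart in any comparison of CSB_KO with WT. The STK19 clones were compared with the same WT line, and untreated they differed from each other in 8 of the 10 genes. Traits of these clones or of the WT line cannot be told apart from an effect of missing STK19 there either. Nothing says that the 3 replicates were separate cultures, so the p-values rest on a spread between samples that may be technical.

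Growth factor receptors switch on the small GTPase RAS, which starts a chain of kinases from RAF through MEK to ERK. Active ERK induces its own brakes: Sprouty proteins (SPRY2, SPRY4) block signalling from receptors to RAS and RAF, SPRED proteins (SPRED1, SPRED2) bring the RAS-inactivating protein NF1 to the membrane, and the phosphatases DUSP4, DUSP5 and DUSP6 remove the activating phosphates of ERK. ETV4 and ETV5 are ETS-family transcription factors that carry part of the transcriptional response, and PHLDA1 is a pleckstrin-homology-like protein and a common member of RNA signatures of this pathway. UV light is known to trigger stress and growth factor signalling within minutes and to stall RNA polymerase in transcribed genes. The activity of ERK itself was not measured here.

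Library totals ran from 36.5 to 212.9 M counts with a median of 56.3 M, and the 10 genes had between 65 (SPRY4) and 8322 (DUSP5) counts per library. Levels are CPM, counts divided by the TMM-scaled library total, so each is a share of the library's RNA and a gene can rise because others fell. In bulk RNA, fewer cells that express a gene and less of its RNA per cell cannot be told apart. 5 libraries differed from both other replicates of their group by a chi-square of over 20 per gene: in WT, replicate 1 of the 0 h, 3 h and 4 h DMSO groups, and in STK19_KO1, replicate 3 of the 3 h group and replicate 1 of the 4 h ATRi group. Among the other libraries a single pair reached 26.34 (replicates 1 and 2 of STK19_KO1 at 20 h with ATRi). At 0 h, ERCC6 was at 6.97 CPM in CSB_KO and at 23.5 to 25.6 CPM in the other lines. STK19 RNA was at 17.1 and 17.5 CPM in its knockouts and at 19.0 CPM in WT, which does not check those knockouts. Summed markers of blood, squamous epithelium, kidney tubule and fibroblasts stayed between 0 and 26.3 CPM in every library, while neural genes known from HEK293 cells summed to 160 to 210 CPM in WT, 225 to 261 in CSB_KO, 259 to 386 in STK19_KO1 and 182 to 293 in STK19_KO2. The collecting duct water channel AQP2 had at most 3 counts in every library of each line, as did the haemoglobin gene HBB in the lines other than STK19_KO2. The squamous marker SPRR1B had at most 3 counts in every library of each line too, and the fibroblast marker COL1A2 in the lines other than CSB_KO. So did DCN and LUM in both STK19 clones, and further markers in some lines. Only 4 of the 5 tubule markers were in the count table. Some markers of these lists were present. Line means were 10.3 to 18.2 CPM for the tubule marker LRP2, 6.51 to 10.7 CPM for the fibroblast marker COL1A1 and 2.81 to 4.63 CPM for the blood marker CD68. The part of these line differences in the results below was not tested.

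Promoter sequence from RefSeq (GRCh38.p14) matched 6 of the 10 genes. The 250 bases before an annotated start are shown for 5 genes. They were picked after their values were seen because their RNA rose or fell in different ways after UV. All letters are in lower case except a match to the ETS core CCGGAA, on either strand, in capitals. The SPRY4 window lies inside the span of that gene in the count table (chr5:142310427-142326455, minus strand). Bases before the outer end of that span were not searched.
PHLDA1 (chr12:76031777-76032026, minus strand): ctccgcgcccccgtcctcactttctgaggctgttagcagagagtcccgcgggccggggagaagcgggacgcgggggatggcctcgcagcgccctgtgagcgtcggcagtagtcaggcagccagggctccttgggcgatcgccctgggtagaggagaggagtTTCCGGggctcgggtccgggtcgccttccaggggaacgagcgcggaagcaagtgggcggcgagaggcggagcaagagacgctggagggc
SPRY2, first of 3 starts (chr13:80341127-80341376, minus strand): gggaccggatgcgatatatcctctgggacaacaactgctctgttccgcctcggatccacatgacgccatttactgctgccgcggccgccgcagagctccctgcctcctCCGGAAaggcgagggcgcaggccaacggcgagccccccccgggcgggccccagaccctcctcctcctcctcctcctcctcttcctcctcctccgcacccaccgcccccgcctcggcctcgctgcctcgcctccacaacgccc
SPRY4 (chr5:142324248-142324497, minus strand): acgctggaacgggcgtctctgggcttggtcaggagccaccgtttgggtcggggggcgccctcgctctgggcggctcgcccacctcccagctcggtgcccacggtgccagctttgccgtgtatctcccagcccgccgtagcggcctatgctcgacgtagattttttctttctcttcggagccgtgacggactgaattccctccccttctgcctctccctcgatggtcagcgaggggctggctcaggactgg
DUSP6 (chr12:89352502-89352751, minus strand): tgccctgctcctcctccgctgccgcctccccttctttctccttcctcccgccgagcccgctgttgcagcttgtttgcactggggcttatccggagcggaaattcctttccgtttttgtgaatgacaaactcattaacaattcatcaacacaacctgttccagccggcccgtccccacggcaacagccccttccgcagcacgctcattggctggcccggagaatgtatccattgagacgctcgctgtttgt
SPRED1 (chr15:38252586-38252835, plus strand): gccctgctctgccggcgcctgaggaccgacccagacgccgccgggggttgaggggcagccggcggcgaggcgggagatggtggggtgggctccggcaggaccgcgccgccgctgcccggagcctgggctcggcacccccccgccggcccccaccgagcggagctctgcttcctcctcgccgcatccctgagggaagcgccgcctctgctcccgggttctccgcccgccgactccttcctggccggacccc
The core CCGGAA occurred once in the PHLDA1 window, as its reverse complement at bases -89 to -84 from the start, and once in the SPRY2 window at -142 to -137. Among 35116 promoters of the same length, 14.5% held it on either strand. The AP-1 site TGANTCA (6.57% of promoters), the cyclic AMP response element TGACGTCA (1.65%) and the CArG box bound by serum response factor (1.16%) had no match in any window of the 6 genes. These are matches of letters within 250 bases and say nothing of binding.

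Per kilobase of exon, the untreated WT cells held ETV4, ETV5 and SPRED2 at the highest levels of the 10 genes (11.3, 8.10 and 7.97 CPM per kb). DUSP5 and SPRY2 followed at 6.80 and 6.70 CPM per kb. SPRED1, DUSP6, SPRY4 and DUSP4 lay between 2.08 and 3.49 CPM per kb, and PHLDA1 was lowest at 0.378 CPM per kb. Across the 24 groups, SPRY4 had the widest range, 24.6-fold between its group means, from 1.48 CPM in untreated STK19_KO2 to 36.4 CPM in WT at 4 h with ATRi. ETV4 spanned 13.0-fold, from untreated STK19_KO2 to WT at 20 h with DMSO. The range was 9.12-fold for SPRED2, 7.42-fold for SPRED1 and 7.22-fold for PHLDA1, while SPRY2 and DUSP4 stayed within 2.42-fold and 2.5-fold. Untreated STK19_KO2 was the lowest group for 5 of the genes (SPRY4, DUSP4, DUSP5, DUSP6 and ETV4). Between 16 and 21 of the 23 neighbours in each gene's order had overlapping libraries, so most adjacent groups did not differ beyond their spread.

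**Figure D1:**
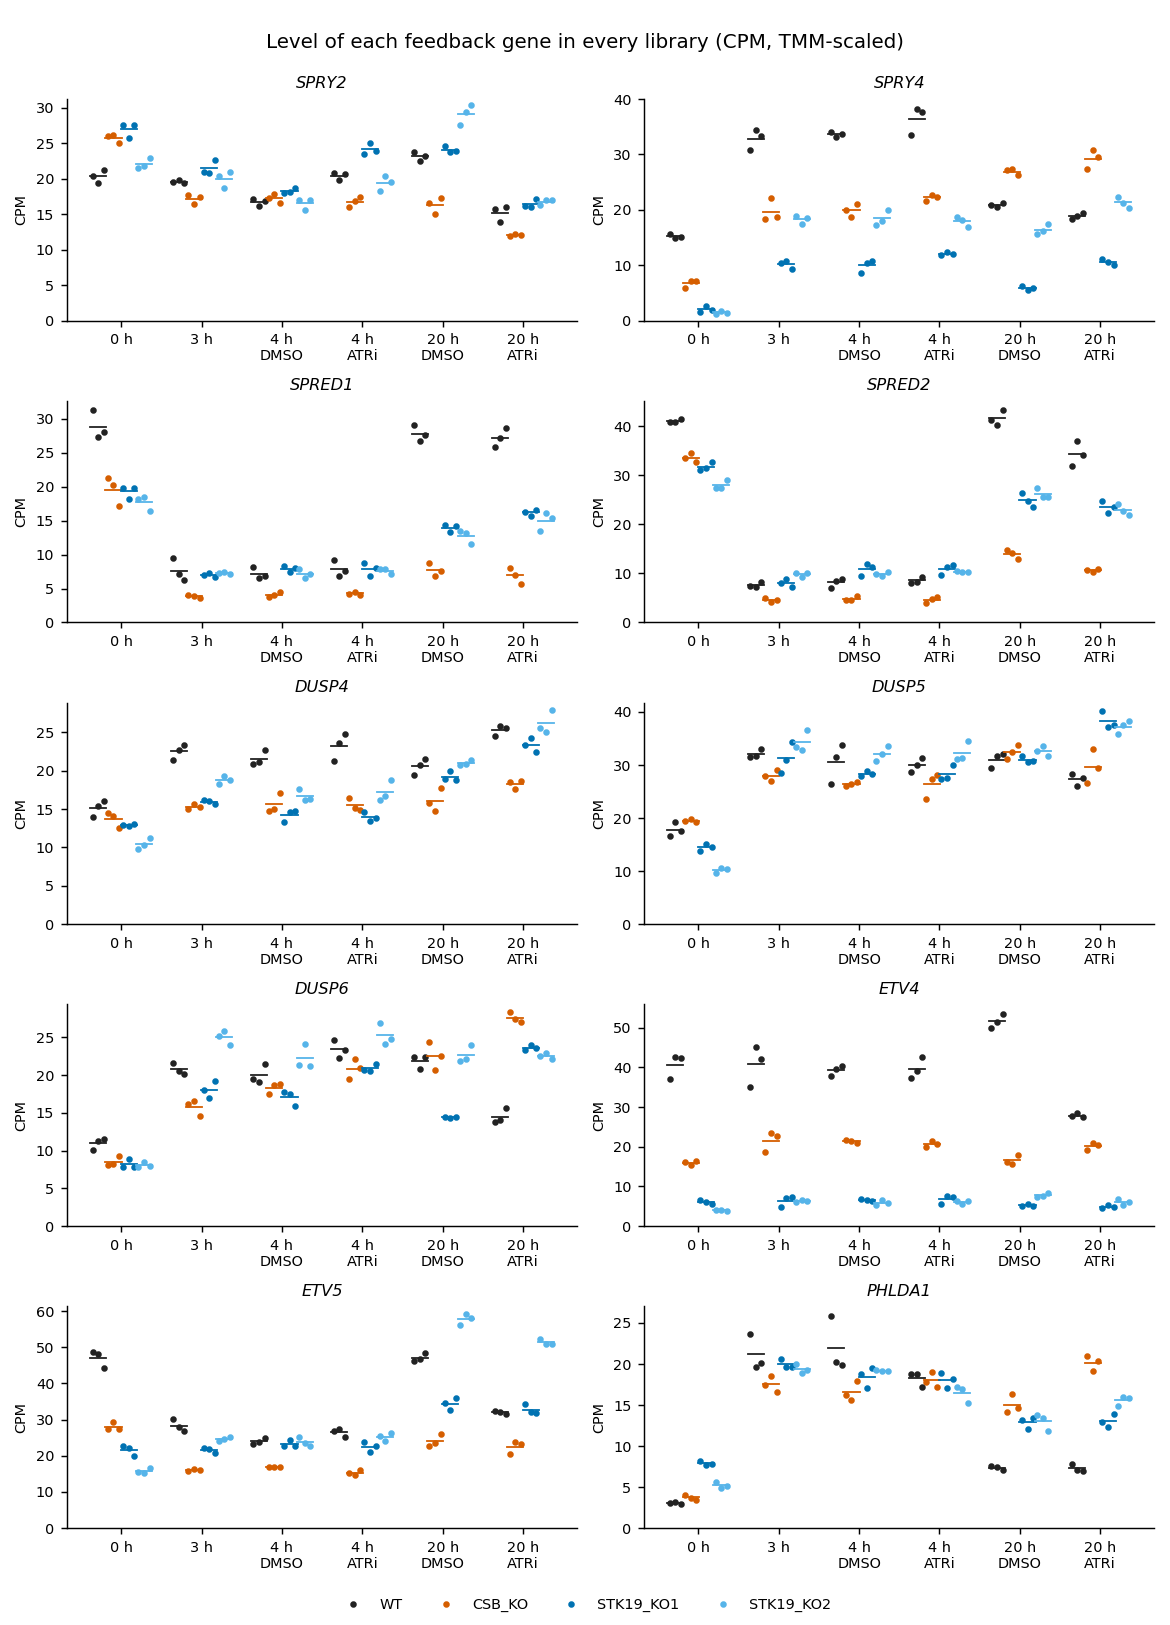
Level of each of the 10 genes in every library, in CPM after TMM scaling (vertical axis, from 0), by time and treatment (horizontal axis) and line (colour). Points are libraries (n = 3 per group) and bars are means, and SPRED1 and SPRED2 are low at 3 h and 4 h in all 4 lines while PHLDA1 is high there.

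Untreated knockout cells held less RNA of most of these genes than untreated WT cells, with the largest gaps in SPRY4, ETV4 and ETV5, while PHLDA1 was higher. In CSB_KO, 2 of 10 genes were higher and 6 lower, where 19.1% and 15.7% of all tested genes were called in those directions (edgeR quasi-likelihood test at a Benjamini-Hochberg adjusted p of 0.05, as for every call below). In STK19_KO1, 2 were higher and 8 lower, against 29.5% and 19.2% of all genes. In STK19_KO2, 1 was higher and 8 lower, against 26.6% and 20.7%. The median log2 difference of the 10 genes was -0.34, -0.40 and -0.63 in CSB_KO, STK19_KO1 and STK19_KO2, where that of all tested genes was 0.00, 0.05 and 0.03.

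Among the inhibitors of RAS signalling, SPRY4 (chr5:142310427-142326455, minus strand, GRCh38) was at 15.7, 14.9 and 15.03 CPM in the 3 WT libraries and at 5.91, 7.21 and 7.12 CPM in CSB_KO. It was at 1.52, 2.59 and 1.97 CPM in STK19_KO1 and at 1.27, 1.81 and 1.36 CPM in STK19_KO2. No knockout library reached the WT range, and the log2 fold changes against WT were -1.17 ± 0.086 (SE), -2.90 ± 0.104 and -3.36 ± 0.104, with adjusted p from 4.59e-17 down to 2.71e-34. SPRED1, at 28.8 ± 2.13 CPM in WT (mean ± SD, n = 3, as below), was lower by similar amounts in the 3 knockouts, with log2 fold changes of -0.56, -0.58 and -0.70. SPRED2, at 41.1 ± 0.348 CPM in WT, had log2 fold changes of -0.29, -0.37 and -0.56 in the same order. SPRY2 (chr13:80335976-80341126, minus strand) was higher than in WT where it passed the test. Its level of 20.3 ± 0.872 CPM in WT compared with 25.7 ± 0.651 CPM in CSB_KO (0.34 ± 0.052) and 26.9 ± 1.09 CPM in STK19_KO1 (0.41 ± 0.052), and STK19_KO2 at 22.1 ± 0.780 CPM did not pass the test (adjusted p = 0.0595).

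The transcription factors were lower in every knockout. ETV4 (chr17:43527844-43579620, minus strand) was at 37.01, 42.7 and 42.3 CPM in WT, at 16.2, 15.5 and 16.3 CPM in CSB_KO, at 6.64, 6.17 and 5.65 CPM in STK19_KO1 and at 4.10, 3.99 and 3.78 CPM in STK19_KO2. The 4 lines did not overlap, and the log2 fold changes were -1.35 ± 0.092, -2.73 ± 0.102 and -3.36 ± 0.105 with adjusted p of 2.43e-18 or less. ETV5 (chr3:186046314-186110318, minus strand) showed the same order of lines with smaller gaps, from 47.01 ± 2.35 CPM in WT through 28.03 ± 1.24 and 21.6 ± 1.36 CPM to 15.8 ± 0.588 CPM in STK19_KO2 (log2 fold changes -0.74, -1.12 and -1.57). PHLDA1 (chr12:76025447-76031776, minus strand) was higher in each knockout, at 3.11, 3.13 and 2.89 CPM in WT, 4.02, 3.71 and 3.47 CPM in CSB_KO, 8.13, 7.73 and 7.86 CPM in STK19_KO1 and 5.66, 4.92 and 5.18 CPM in STK19_KO2. Its log2 fold changes were 0.30 ± 0.093 (adjusted p = 0.00776), 1.38 ± 0.091 and 0.79 ± 0.092.

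The ERK phosphatases differed less than SPRY4, ETV4 and ETV5 did. DUSP6 (chr12:89347235-89352501, minus strand), which acts on ERK in the cytoplasm, was lower by nearly the same amount in all 3 knockouts, at -0.38, -0.43 and -0.44 from a WT level of 10.98 ± 0.816 CPM. In GENCODE 29, 40.5% of its exonic bases overlap an antisense gene, AC024909.2, and 9.65% and 6.85% of those of PHLDA1 overlap antisense genes. No source used here says whether reads were counted by strand, so reads of such pairs cannot be told apart. DUSP5 (chr10:110497907-110511533, plus strand) and DUSP4, which act in the nucleus, were lower in both STK19 clones. The DUSP5 fold changes were -0.29 in STK19_KO1 and -0.80 in STK19_KO2, and those of DUSP4 were -0.23 and -0.53. In CSB_KO neither passed the test (adjusted p = 0.131 for DUSP5 and 0.0857 for DUSP4). The DUSP4 difference in CSB_KO passed once replicate 1 of WT at 0 h was left out (adjusted p = 0.0315). Leaving out a replicate number in all groups ended the calls of DUSP4 in STK19_KO1 (number 2, adjusted p = 0.0971) and of PHLDA1 in CSB_KO (number 3, adjusted p = 0.0631).

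The STK19 clones also differed from each other. In STK19_KO2 against STK19_KO1, 0 genes were higher and 8 lower, where 14.4% and 18.8% of all genes were called in those directions, and the count of higher genes was also 0 at an unadjusted p under 0.05 and by DESeq2. The largest differences were in ETV4 (-0.63 ± 0.111), PHLDA1 (-0.59 ± 0.084), DUSP5 (-0.50 ± 0.073) and SPRY4 (-0.45 ± 0.128). The SPRY4 libraries of the clones overlapped at these low counts, and the call was lost without replicate number 3 (adjusted p = 0.157). The SPRED2 call (-0.18) was lost with RLE size factors (adjusted p = 0.0658), without the low-count filter (0.135) and without number 2 or 3 (0.268 and 0.242).

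**Figure D2:**
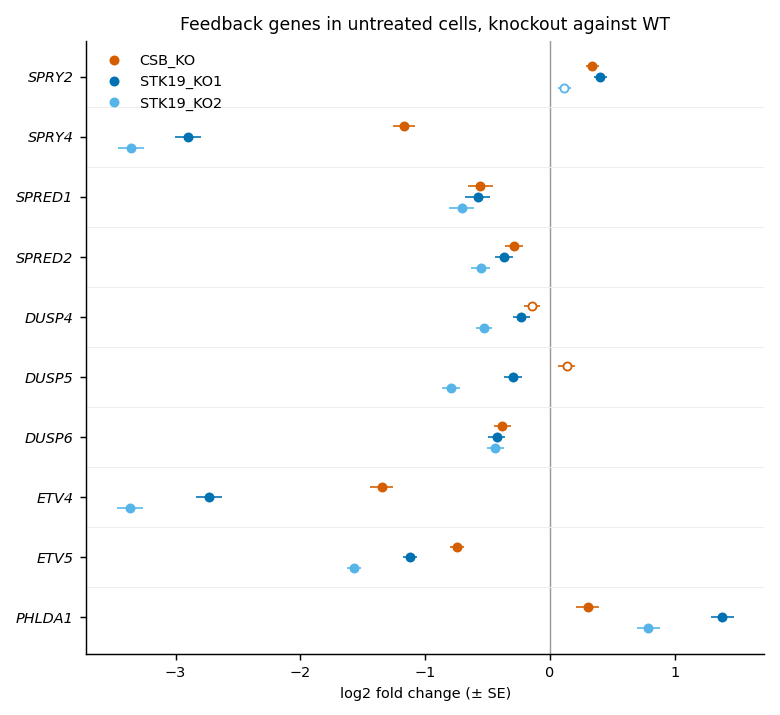
Log2 fold change of each gene in untreated CSB_KO, STK19_KO1 and STK19_KO2 cells against untreated WT cells, with standard errors (n = 3 libraries per group). Filled points passed an adjusted p of 0.05, open points did not, and SPRY4, ETV4 and ETV5 lie farthest to the left.

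At 3 h after UV, PHLDA1, SPRY4 and the 3 phosphatases rose in all 4 lines, SPRED1 and SPRED2 fell in all 4, and ETV5 moved in opposite directions in different lines. In WT, 5 of 10 genes rose and 3 fell, where 33.6% and 28.8% of all tested genes did. In CSB_KO, 6 rose and 4 fell (32% and 29.3% of all genes), in STK19_KO1 5 rose and 3 fell (29.9% and 30.6%), and in STK19_KO2 7 rose and 3 fell (29.1% and 28.5%). The median log2 change of the 10 genes was 0.29, 0.29, 0.19 and 0.75 in WT, CSB_KO, STK19_KO1 and STK19_KO2, and that of all genes was 0.06, 0.06, 0.03 and 0.05.

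SPRY4 rose from 15.7, 14.9 and 15.03 CPM to 30.8, 34.4 and 33.2 CPM in WT (1.11 ± 0.081, log2 fold change and SE). It rose to 18.3, 22.1 and 18.7 CPM in CSB_KO (1.54 ± 0.086), to 10.4, 10.8 and 9.35 CPM in STK19_KO1 (2.33 ± 0.106) and to 18.9, 17.4 and 18.5 CPM in STK19_KO2 (3.62 ± 0.103). The lines with the lowest untreated level had the largest fold change, and every knockout library remained below the WT libraries at 3 h. The untreated level is also the base of the fold change, so that order is not a separate result. As means, SPRY4 went from 15.2 to 32.8 CPM in WT and from 6.74 to 19.7 CPM in CSB_KO. In STK19_KO1 it went from 2.03 to 10.2 CPM and in STK19_KO2 from 1.48 to 18.3 CPM. The log2 change was larger than in WT by 0.43 ± 0.118 in CSB_KO (adjusted p = 0.00981) and by 1.86 ± 0.111 in the mean of the STK19 clones (adjusted p = 1.51e-19). Here and below, a difference of the STK19 clones from the change in WT is that of their mean. Its SE holds the spread between libraries, not that between clones. The CSB_KO difference lost its call whichever replicate number was left out (adjusted p = 0.0633, 0.0788 and 0.0756). SPRY2, its paralog, fell in the 3 knockouts, with log2 fold changes of -0.59 (CSB_KO), -0.33 (STK19_KO1) and -0.14 (the other clone), and did not pass the test in WT (20.3 CPM at 0 h and 19.6 CPM at 3 h). Its call in STK19_KO2 was lost without the low-count filter (adjusted p = 0.0851) and without replicate number 2 (0.157).

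The SPRED genes fell several-fold. SPRED2 went from 40.9, 40.8 and 41.5 CPM to 7.39, 7.21 and 8.20 CPM in WT, from 33.6 to 4.56 CPM in CSB_KO, from 31.8 to 7.998 CPM in STK19_KO1 and from 27.9 to 9.82 CPM in STK19_KO2. The log2 fold changes were -2.43 ± 0.079, -2.88 ± 0.086, -1.98 ± 0.081 and -1.51 ± 0.077. SPRED1 followed with -1.92 ± 0.105, -2.33 ± 0.116, -1.45 ± 0.109 and -1.27 ± 0.105, and no library at 3 h reached the 0 h range of its line. The fall of SPRED2 was deeper than in WT in CSB_KO (difference -0.45 ± 0.116, adjusted p = 0.00575) and shallower in the STK19 clones (0.69 ± 0.095, adjusted p = 1.95e-07). For SPRED1 the STK19 difference passed (0.56 ± 0.128) and the CSB_KO difference did not (adjusted p = 0.0832, or 0.0428 without replicate 1 of WT at 0 h and 0.0454 with the replicate number as a block). Without replicate number 2 or 3, the calls of the SPRED2 difference in CSB_KO (adjusted p = 0.201 and 0.0925) and of the SPRED1 difference in the STK19 clones (0.0547 and 0.0551) were lost.

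These are the longest of the 10 genes. SPRED1 spans 104 kb (chr15:38252836-38357249, plus strand, GRCh38) and SPRED2 spans 122 kb (chr2:65310851-65432637, minus strand), while the other 8 span 5.15 kb (SPRY2) to 64.0 kb (ETV5). The 2475 tested genes with spans of 100 to 300 kb had a median log2 change at 3 h of -0.41, -0.30, -0.54 and -0.49 in WT, CSB_KO, STK19_KO1 and STK19_KO2, and their lower quartiles were -0.95, -0.87, -1.02 and -0.94. SPRED1 and SPRED2 lay below the lower quartile in all 4 lines. At 20 h with DMSO they lay between its quartiles or above the upper one in each line.

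**Figure D3:**
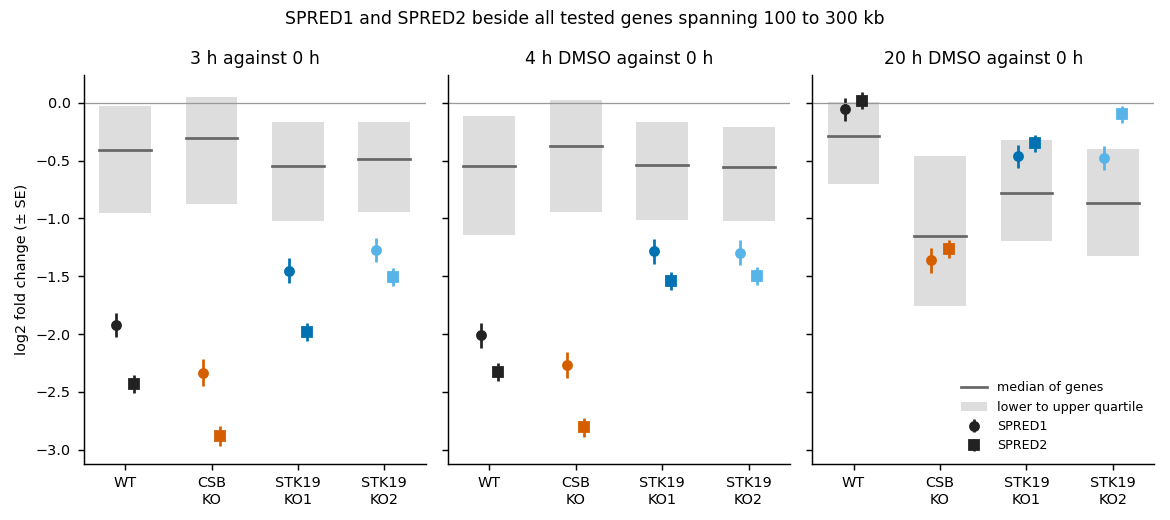
Log2 fold change of SPRED1 (circles) and SPRED2 (squares), with standard errors (n = 3 libraries per group), at 3 h, 4 h with DMSO and 20 h with DMSO against 0 h in each line. Grey boxes run from the lower to the upper quartile and grey lines mark the median of the 2475 tested genes that span 100 to 300 kb, and both genes lie below the boxes at 3 h and 4 h but not at 20 h.

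All 3 phosphatases rose in every line at 3 h. DUSP6 rose from 10.1, 11.3 and 11.6 CPM to 21.6, 20.5 and 20.2 CPM in WT (0.91 ± 0.066) and by 0.90, 1.14 and 1.62 log2 units in CSB_KO, STK19_KO1 and STK19_KO2, with no overlap between the times. DUSP5 rose by 0.85, 0.52, 1.11 and 1.74 in the same order of lines, and DUSP4 by 0.57, 0.15, 0.30 and 0.84. The DUSP5 libraries at 3 h spanned 27.0 to 36.6 CPM over all 4 lines, although the untreated means ranged from 10.2 to 19.5 CPM. Against WT, the rise was smaller in CSB_KO for DUSP4 (-0.41 ± 0.092) and DUSP5 (-0.33 ± 0.097). It was larger in the mean of the STK19 clones for DUSP5 (0.57 ± 0.085) and DUSP6 (0.46 ± 0.081), with the larger rise in STK19_KO2 for both. The rise of DUSP4 in CSB_KO lost its call without the low-count filter (adjusted p = 0.0753) and without replicate number 2 (0.172) or 3 (0.088 log2 units, adjusted p = 0.302). The CSB_KO differences lost theirs without number 2 (adjusted p = 0.104 for DUSP4 and 0.197 for DUSP5), and that of DUSP5 also without number 3 (0.133) and without replicate 1 of WT at 0 h (adjusted p = 0.0534).

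PHLDA1 had the largest rise of the 10 genes in WT and a smaller one in each knockout. It went from 3.11, 3.13 and 2.89 CPM to 23.7, 19.7 and 20.1 CPM in WT (2.80 ± 0.087, adjusted p = 6.4e-35), and its log2 rise in CSB_KO, STK19_KO1 and STK19_KO2 was 2.22 ± 0.083, 1.33 ± 0.080 and 1.89 ± 0.080. The rise differed from that in WT by -0.58 ± 0.120 in CSB_KO (adjusted p = 0.00044) and by -1.19 ± 0.103 in the STK19 clones (adjusted p = 3.34e-13). As levels, the group means at 3 h lay close together, from 17.5 CPM in CSB_KO to 21.2 CPM in WT, after untreated means of 3.05 to 7.91 CPM.

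ETV5 fell from 48.6, 48.1 and 44.3 CPM to 30.3, 27.8 and 26.9 CPM in WT (-0.73 ± 0.054) and by 0.81 on the log2 scale in CSB_KO. In STK19_KO2 it rose from 15.6, 15.3 and 16.5 CPM to 23.9, 24.5 and 25.1 CPM (0.63 ± 0.056), with no overlap in either direction, and in STK19_KO1 it was at 21.6 CPM before and 21.6 CPM after UV (adjusted p = 0.987). The mean change in the STK19 clones exceeded that in WT by 1.05 ± 0.067 (adjusted p = 3.5e-18). ETV4 rose in CSB_KO (0.43 ± 0.093) and STK19_KO2 (0.67 ± 0.108), and its libraries at 0 h and 3 h overlapped in WT (adjusted p = 0.979) and STK19_KO1. The ETV4 change in STK19_KO1 passed as a rise without replicate number 1 (0.291, adjusted p = 0.00248) and was -0.083 without number 3. Both differences of ETV4 from WT at 3 h, 0.43 in CSB_KO and 0.37 in the STK19 clones, lost their call without replicate number 2 or 3 and without replicate 1 of WT at 3 h (adjusted p = 0.0934 and 0.0769). Of the 10 genes, 2 changed more and 5 less than in WT in CSB_KO at 3 h on the signed log2 scale, where 1.48% and 8.3% of all genes did, and 7 and 2 in the STK19 clones, where 10.1% and 17.1% of all genes did. The 7 calls in CSB_KO were 2 without replicate number 2 and 3 without number 3.

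At 4 h with DMSO, SPRED1 and SPRED2 were below and PHLDA1, SPRY4, DUSP5 and DUSP6 above their untreated levels in all 4 lines. In WT 5 rose and 4 fell against 0 h (35% and 31.3% of all genes), 6 and 4 of 10 in CSB_KO (33.6% and 30.2%), 4 and 3 in STK19_KO1 (27.9% and 30%) and, for the other STK19 clone, 7 and 3 (31.6% and 29.8%). The SPRED2 fold changes were -2.33, -2.81, -1.54 and -1.50 in WT, CSB_KO, STK19_KO1 and STK19_KO2, and those of PHLDA1 were 2.86, 2.15, 1.22 and 1.87. ETV5 was again lower in WT (-0.97 ± 0.055) and CSB_KO (-0.74 ± 0.057) and higher in STK19_KO2 (0.59 ± 0.056). SPRY2 was lower in WT as well (-0.28 ± 0.053), and DUSP4 was not called in STK19_KO1 by edgeR (adjusted p = 0.0717) but was by DESeq2 (adjusted p = 0.0329). The rise of DUSP4 in CSB_KO at 4 h (0.18) lost its call without replicate number 3 (0.046, adjusted p = 0.603). The 3 h and 4 h comparisons share the untreated libraries and were not tested against each other.

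**Figure D4:**
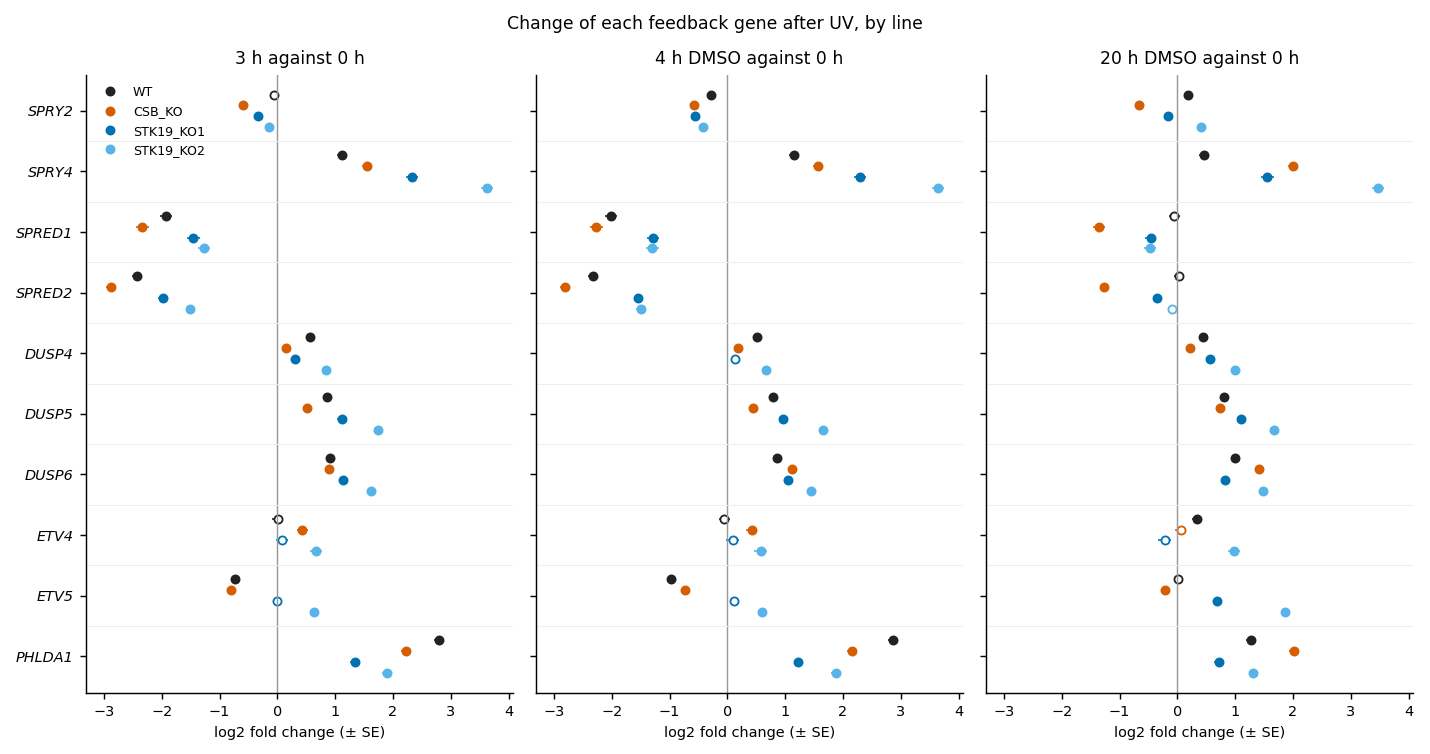
Log2 fold change of each gene at 3 h, 4 h with DMSO and 20 h with DMSO against 0 h in the same line, with standard errors (n = 3 libraries per group). Filled points passed an adjusted p of 0.05 and open points did not, and SPRED1 and SPRED2 are far to the left at 3 h and 4 h in all 4 lines and, at 20 h, farthest left in CSB_KO.

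By 20 h with DMSO the SPRED genes overlapped their untreated levels in WT and were lower than at 0 h in CSB_KO, SPRY4 was above its own 0 h level in every line, and the phosphatases were still raised. In WT 7 of 10 genes were above 0 h and 0 below, where 30% and 25.4% of all genes were. The count below 0 h in WT was also 0 at an unadjusted p under 0.05 and by DESeq2. In CSB_KO 5 were above and 4 below (38.3% and 40.5% of all genes), in STK19_KO1 6 and 3 (32.1% and 37%), and in STK19_KO2 8 and 1 (33.8% and 37.8%). The median log2 change of the 10 genes was 0.39, 0.14, 0.62 and 1.16 in WT, CSB_KO, STK19_KO1 and STK19_KO2, and that of all genes lay between -0.025 and 0.047.

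SPRED1 in WT was at 31.2, 27.2 and 27.97 CPM untreated, 8.12, 6.53 and 6.77 CPM at 4 h and 29.1, 26.7 and 27.6 CPM at 20 h with DMSO. The 0 h and 20 h libraries overlapped (adjusted p = 0.668), and the rise from 4 h to 20 h was 1.96 ± 0.106. In CSB_KO it was at 21.2, 20.2 and 17.2 CPM untreated and 8.78, 6.80 and 7.51 CPM at 20 h, with no overlap (-1.36 ± 0.108). The change differed from that in WT by -1.31 ± 0.146 (adjusted p = 1.11e-11). SPRED2 gave a like picture, with 41.1 and 41.6 CPM in WT at 0 h and 20 h (adjusted p = 0.838), -1.26 ± 0.077 in CSB_KO, and a difference between them of -1.28 ± 0.106. In the STK19 clones the remaining deficit was smaller: SPRED1 was lower by 0.46 and 0.48 on the log2 scale and SPRED2 by 0.35 in STK19_KO1, while SPRED2 in STK19_KO2 did not pass the test (adjusted p = 0.229). The differences from WT were -0.42 ± 0.122 for SPRED1 and -0.24 ± 0.089 for SPRED2, and both lost their call without replicate number 2 (adjusted p = 0.0504 and 0.0995) or 3 (0.0621 and 0.268).

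SPRY4 at 20 h with DMSO was at 20.9, 20.5 and 21.2 CPM in WT libraries, which was -0.69 ± 0.080 against 4 h and 0.46 ± 0.082 against 0 h on the log2 scale. CSB_KO held 27.1, 27.5 and 26.2 CPM, above the WT libraries of that time and above its own 4 h level by 0.44 ± 0.082. Relative to 0 h, CSB_KO had risen by 2.00 ± 0.086, STK19_KO1 by 1.56 ± 0.108 and STK19_KO2 by 3.46 ± 0.103. STK19_KO1 had, like WT, dropped from 4 h (-0.74 ± 0.090). The differences from the change in WT were 1.54 ± 0.118 in CSB_KO (adjusted p = 1.59e-17) and 2.05 ± 0.112 in the STK19 clones (adjusted p = 6.53e-23). The clones were far apart in level, with 5.92 CPM in STK19_KO1 and 16.4 CPM in STK19_KO2. SPRY2 was above its 0 h level in WT (0.19) and STK19_KO2 (0.40) and below it in CSB_KO (-0.66 ± 0.053) and STK19_KO1 (-0.16), and its change in CSB_KO differed from that in WT by -0.85 ± 0.074. The STK19_KO1 value lost its call without the low-count filter (-0.066, adjusted p = 0.337) and without replicate number 3 (-0.123, adjusted p = 0.132).

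ETV5 in WT had 46.3, 46.7 and 48.4 CPM at 20 h, overlapping the untreated libraries (adjusted p = 0.94). STK19_KO2 rose from 15.6, 15.3 and 16.5 CPM untreated to 56.3, 59.1 and 58.03 CPM, above every WT library of that time (1.87 ± 0.056). STK19_KO1 rose by 0.68 ± 0.056, and the mean of the clones differed from WT by 1.27 ± 0.067 (adjusted p = 1.32e-23). In CSB_KO, ETV5 was lower than at 0 h (-0.22 ± 0.056), a call lost without replicate number 2 (adjusted p = 0.0648). ETV4 rose in WT (0.34 ± 0.089) and STK19_KO2 (0.98 ± 0.107), but its level in STK19_KO2, 7.78 CPM, stayed far below the 51.6 CPM in WT.

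Among the phosphatases at 20 h, DUSP6 was above 0 h by 0.99, 1.41, 0.81 and 1.48 log2 units in WT, CSB_KO, STK19_KO1 and STK19_KO2, and the CSB_KO change exceeded that in WT by 0.42 ± 0.094. DUSP5 was above by 0.81, 0.73, 1.10 and 1.67, and DUSP4 by 0.44, 0.23, 0.57 and 1.00. Without replicate number 3, DUSP4 in CSB_KO was at 0.101 and lost its call (adjusted p = 0.193). The mean change of the STK19 clones exceeded that in WT for DUSP5 (0.58 ± 0.085) and DUSP4 (0.34 ± 0.079), with the larger change in STK19_KO2 for both. The DUSP6 difference in the STK19 clones did not pass with all libraries (adjusted p = 0.105) and passed without replicate 1 of WT at 0 h (adjusted p = 0.0325). PHLDA1 had come down in WT from 25.9, 20.3 and 19.8 CPM at 4 h to 7.52, 7.40 and 7.13 CPM at 20 h (-1.58 ± 0.078), while CSB_KO held 14.1, 16.4 and 14.7 CPM at 20 h, overlapping its 4 h libraries. The rise over 0 h was 1.27 ± 0.090 in WT and 2.01 ± 0.084 in CSB_KO, a difference of 0.74 ± 0.123 (adjusted p = 4.64e-07).

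From 4 h to 20 h with DMSO, SPRED1, SPRED2 and ETV5 rose in all 4 lines, and PHLDA1 fell in the 3 lines other than CSB_KO. In CSB_KO PHLDA1 did not pass the test with all libraries and passed as a fall without replicate number 2 (-0.247, adjusted p = 0.0359). The counts higher and lower were 5 and 2 in WT (34.1% and 35.5% of all genes), 6 and 1 in CSB_KO (34.6% and 37.2%), 5 and 4 in STK19_KO1 (32.3% and 33.4%) and 6 and 1 in STK19_KO2 (31.6% and 34.9%). SPRED2 rose by 2.35 in WT and by 1.19 to 1.54 in the knockouts, and SPRED1 by 1.96 in WT and 0.82 to 0.91 in the knockouts. For the change from 0 h to 20 h, 3 genes were above and 6 below WT in CSB_KO, against 30.9% and 36.3% of all genes, and 4 and 3 in the STK19 clones, against 22.8% and 32.7%. Without replicate number 2 or 3, the STK19 counts were 4 and 0.

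With ATRi at 4 h few of these genes differed from DMSO. In WT 2 were higher and 1 lower (2.03% and 0.627% of all genes), in STK19_KO1 2 were higher (0.776% of all genes, with 0.129% lower) and in STK19_KO2 1 was higher (0.194%, with 0.0259% lower). In CSB_KO edgeR called 0 (2.7% higher and 0.278% lower of all genes), with 1 higher and 1 lower at an unadjusted p under 0.05 and 0 called by DESeq2. SPRY2 was the gene called in 3 lines, at 17.2, 16.2 and 16.9 CPM with DMSO and 20.8, 19.8 and 20.6 CPM with ATRi in WT (0.28 ± 0.053, adjusted p = 0.000427). It rose from 18.1, 18.1 and 18.7 to 23.5, 25.1 and 23.9 CPM in STK19_KO1 (0.40 ± 0.052) and by 0.23 ± 0.054 in STK19_KO2, with no overlap in these lines. In CSB_KO the libraries overlapped. DUSP6 rose in WT (0.22 ± 0.064) and STK19_KO1 (0.30 ± 0.065), and PHLDA1 fell in WT (-0.27 ± 0.074). The SPRY2 call in STK19_KO2 was lost without the low-count filter (adjusted p = 0.0918) and whichever replicate number was left out (0.0714, 1 and 0.66), and that in WT without number 3 (0.0805). The DUSP6 call in STK19_KO1 was lost without number 2 or 3 (adjusted p = 0.105 and 0.414). The DUSP6 and PHLDA1 calls in WT were lost whichever number was left out (DUSP6 adjusted p = 0.202, 0.406 and 0.179, PHLDA1 0.246, 0.163 and 0.245) and without replicate 1 of WT at 4 h with DMSO (DUSP6 adjusted p = 0.117, PHLDA1 -0.14 with adjusted p = 0.308).

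At 20 h, SPRY2 was lower and DUSP4 higher with the inhibitor than with DMSO in all 4 lines, whereas ETV4, DUSP5 and DUSP6 rose in some lines and fell in others. In WT 1 of 10 genes was higher and 6 lower with ATRi (30.2% and 33.7% of all genes). In CSB_KO 4 were higher and 2 lower (14.1% and 17.5%), in STK19_KO1 4 and 1 (31.5% and 30.1%), and in STK19_KO2 5 and 4 (30.5% and 27.7%). The STK19_KO2 counts became 3 and 1 without replicate number 2, and 2 and 1 without number 3, with DUSP5, SPRED1, SPRED2, ETV4 and ETV5 losing their call in both cases and PHLDA1 in the latter. The median log2 difference of the 10 genes was -0.23, 0.01, 0.11 and 0.09 for WT, CSB_KO, STK19_KO1 and STK19_KO2, and that of all genes lay between -0.034 and 0.025.

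SPRY2 was at 23.8, 22.6 and 23.3 CPM with DMSO and 15.8, 13.9 and 16.1 CPM with ATRi in WT (-0.61 ± 0.053). It fell from 27.6, 29.4 and 30.3 to 16.3, 17.03 and 17.02 CPM in STK19_KO2 (-0.80 ± 0.052), by 0.55 in STK19_KO1 and by 0.43 in CSB_KO on the log2 scale, with no overlap in any line. DUSP4 was higher with ATRi by 0.30 ± 0.063 in WT, 0.18 ± 0.066 in CSB_KO, where the libraries overlapped, 0.28 ± 0.063 in STK19_KO1 and 0.32 ± 0.063 in STK19_KO2. SPRED2 was lower by 0.28 in WT, 0.40 in CSB_KO and 0.19 in STK19_KO2. The differences of these responses from those in WT did not pass the test in CSB_KO for DUSP4 (adjusted p = 0.29) or SPRED2 (adjusted p = 0.353), while that of SPRY2 did (0.18 ± 0.077, adjusted p = 0.0479). The SPRY2 call was lost with RLE size factors (adjusted p = 0.088), DESeq2 (0.089), no low-count filter (0.0791) and without replicate number 1 (0.0858) or 2 (0.068 log2 units, adjusted p = 0.594), and the DUSP4 call in CSB_KO without number 1 or 2 (0.0861 and 0.345).

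DUSP6 fell with ATRi in WT and rose in CSB_KO and STK19_KO1. With DMSO and then with ATRi it was at 22.4, 20.8 and 22.4 CPM and 13.8, 14.1 and 15.7 CPM in WT (-0.59 ± 0.065), and at 14.4, 14.3 and 14.5 CPM and 23.3, 23.99 and 23.6 CPM in STK19_KO1 (0.71 ± 0.064). It rose in CSB_KO by 0.29 ± 0.064, and in STK19_KO2 the libraries overlapped at 22.6 and 22.5 CPM (adjusted p = 0.943). The response differed from that in WT by 0.89 ± 0.092 in CSB_KO (adjusted p = 3.74e-12) and by 0.94 ± 0.079 in the STK19 clones (adjusted p = 1.31e-14), a mean over 2 clones that themselves differed.

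ETV4 fell with ATRi in WT from 49.9, 51.5 and 53.3 CPM to 27.7, 28.5 and 27.4 CPM (-0.89 ± 0.091) and rose in CSB_KO from 16.2, 15.7 and 17.9 CPM to 19.3, 20.9 and 20.5 CPM (0.29 ± 0.095). The groups did not overlap in either line, and the responses differed by 1.18 ± 0.131 (adjusted p = 3.97e-11). The rise in CSB_KO lost its call without replicate number 2 (adjusted p = 0.288) or 3 (0.0762). The STK19 clones differed from WT by 0.64 ± 0.117, with a fall of 0.39 in STK19_KO2 and no call in STK19_KO1. ETV5 fell in WT from 47.1 to 31.99 CPM (-0.56 ± 0.054) and in STK19_KO2 (-0.17 ± 0.053), and its response differed from WT in CSB_KO (0.47 ± 0.078) and in the STK19 clones (0.44 ± 0.066). SPRY4 rose with ATRi in STK19_KO1 from 6.31, 5.52 and 5.93 CPM to 11.1, 10.6 and 10.1 CPM (0.83 ± 0.087) and in STK19_KO2 by 0.38 ± 0.081. It did not pass the test in WT (adjusted p = 0.124), and the STK19 response exceeded that in WT by 0.75 ± 0.101 (adjusted p = 1.61e-08). PHLDA1 rose in CSB_KO (0.41 ± 0.077) and STK19_KO2 (0.26 ± 0.076) and overlapped between treatments in WT (adjusted p = 0.902). DUSP5 rose in both STK19 clones (0.31 and 0.19) and fell in WT (-0.18 ± 0.068), a call lost without replicate number 2 (adjusted p = 0.245) or 3 (0.124). Relative to WT, the response was higher in 6 of 10 genes and lower in 0 in CSB_KO (24.7% and 26.9% of all genes), and higher in 5 and lower in 0 in the STK19 clones (20.7% and 20.2%). Both counts of lower genes were 0 as well at an unadjusted p under 0.05 and by DESeq2.

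**Figure D5:**
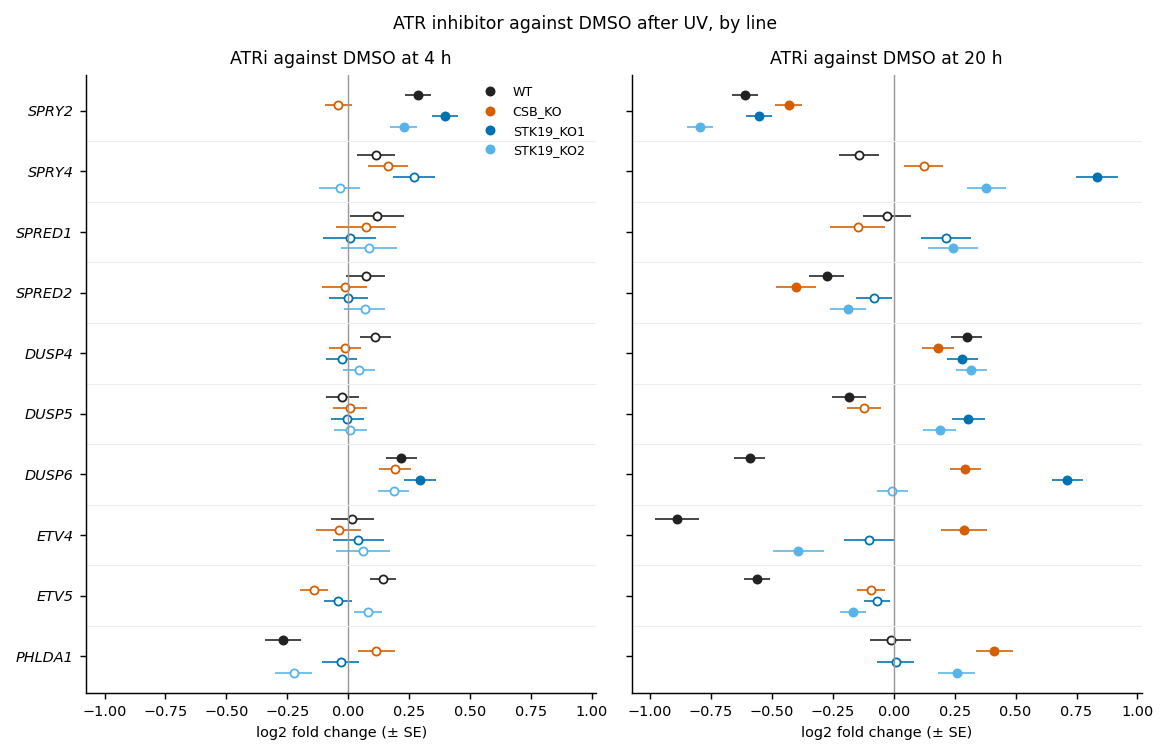
Log2 fold change of each gene with ATRi against DMSO at 4 h and at 20 h in each line, with standard errors (n = 3 libraries per group). Filled points passed an adjusted p of 0.05 and open points did not, and at 20 h SPRY2 lies left of 0 and DUSP4 right of 0 in all 4 lines while DUSP6 and ETV4 are split between lines.

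Other genes of the pathway were read in 5 lists. A gene is named for a line only where it was among the up to 2 called genes with the largest change in a direction. It may also have changed in lines for which it is not named. In untreated cells, genes known to be induced by ERK other than the 10 above (25 tested) were 4 higher and 11 lower in CSB_KO, 9 higher and 9 lower in STK19_KO1, and 5 higher and 12 lower in STK19_KO2, with medians of -0.24, -0.11 and -0.23, where 19.1% higher and 15.7% lower, 29.5% and 19.2%, and 26.6% and 20.7% of all genes were called. FOSL1, an AP-1 subunit, was among the lowest in each (-1.21 ± 0.102, -1.36 ± 0.107 and -3.01 ± 0.119), and EGR1, an immediate early transcription factor, was low in CSB_KO (-0.81 ± 0.062) and STK19_KO2 (-1.32 ± 0.064). Of 17 receptors, 9 were higher in CSB_KO, 10 higher and 2 lower in STK19_KO1, and 11 higher and 3 lower in STK19_KO2. Of 22 other inhibitors, 6, 11 and 8 were higher and 5, 2 and 3 lower. Of 24 cascade members, 4, 8 and 5 were higher and 3, 4 and 5 lower, and of 18 ligands tested 3, 2 and 2 were higher and 4, 7 and 6 lower. The percentages of all genes above are the background of each of these lists.

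At 3 h after UV the other ERK-induced genes rose more often than they fell in every line, with 14, 15, 15 and 17 of 25 higher and 5, 6, 5 and 5 lower in WT, CSB_KO, STK19_KO1 and STK19_KO2. Of all genes, 33.6%, 32%, 29.9% and 29.1% were higher and 28.8%, 29.3%, 30.6% and 28.5% lower. In WT, FOSB (3.08 ± 0.093) and EGR3 (2.42 ± 0.109) rose most, and EPHA4 (-1.93 ± 0.084) and MYC (-1.74 ± 0.056) fell most. Of the cascade, 17 of 24 members fell and 6 rose in WT, with the adaptors FRS2 (-1.64 ± 0.089) and GAB1 (-1.29 ± 0.108) lowest. Receptors were 2 higher and 12 lower in WT, with KIT (-2.13 ± 0.095) and INSR (-1.65 ± 0.071) lowest. Inhibitors were 6 higher, led by RGS2 (2.15 ± 0.094) and SPRED3 (1.32 ± 0.124), the third SPRED gene, and 12 lower. HBEGF, a ligand of the EGF receptor, rose by 2.97 ± 0.052 among 5 ligands higher and 8 lower.

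At 20 h with DMSO, 14 of the 25 other ERK-induced genes were above and 4 below 0 h in WT, and the knockouts had 19 and 4 (CSB_KO), 16 and 6 (STK19_KO1), and 18 and 5 (the other clone). Of all genes, 30%, 38.3%, 32.1% and 33.8% were higher and 25.4%, 40.5%, 37% and 37.8% lower. For HBEGF, CSB_KO was above 0 h by 4.58 ± 0.053, STK19_KO1 by 3.20 ± 0.052 and STK19_KO2 by 3.64 ± 0.052, and the changes exceeded that in WT by 2.67 ± 0.072 and, in the mean of the STK19 clones, 1.52 ± 0.063. The cascade list had 5 higher and 3 lower in WT and 5 and 18 in CSB_KO, where SOS1, which loads RAS with GTP, fell by -2.19 ± 0.082 as a log2 fold change. With ATRi at 20 h, the other ERK-induced genes were 14 higher and 5 lower in WT, while CSB_KO had 8 higher and 2 lower, STK19_KO1 15 and 3, and the other clone 14 and 4. Of all genes, 30.2%, 14.1%, 31.5% and 30.5% were higher and 33.7%, 17.5%, 30.1% and 27.7% lower. EGR1 rose with ATRi in WT (1.06 ± 0.062), STK19_KO1 (1.69 ± 0.064) and STK19_KO2 (1.61 ± 0.062), and ETV1, the third member of the ETV4 subfamily, fell in WT (-1.97 ± 0.104) and STK19_KO2 (-1.12 ± 0.110).

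The 10 genes did not vary as a single block. Over the 24 group means of log2 CPM, SPRED1 and SPRED2 had a Pearson correlation of 0.975, DUSP5 and DUSP6 of 0.875, and SPRY4 and DUSP6 of 0.783. PHLDA1 ran against SPRED1 (-0.81) and SPRED2 (-0.79), and SPRY2 against its paralog SPRY4 (-0.53). In all, 27 of 45 pairs were above 0 and 6 above 0.7. These are descriptions over groups that share lines and untreated libraries. Among 9942 other genes with a mean log2 CPM of at least 3, the pattern nearest to SPRED1 was that of SP3 (0.981) and nearest to SPRED2 that of RNF111 (0.979). ETV4 lay nearest to GSTP1 (0.962) and KCNG1 (0.944), DUSP6 to PLK2 (0.918) and FOS (0.917), DUSP5 to IER3 (0.898) and RGS2 (0.874), and PHLDA1 to PLPP5 and VASN (both 0.917). The nearest genes were less alike for SPRY2 (BTBD3, 0.872), DUSP4 (MRPS5, 0.869), SPRY4 (OGFRL1, 0.856) and ETV5 (PRRC1, 0.852).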

How the data were processed

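The deposited table holds whole-number expected counts per gene for 72 libraries, which the authors made with STAR and RSEM on GRCh38, per the submitters' processing notes. Versions of both tools and the annotation release are not given in the sources used here. RNA was extracted with an RNeasy kit and made into directional poly(A) libraries, per the labels' protocols. All 10 genes were found by symbol. The 10 genes and the pathway lists were chosen with earlier results of these data known.

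Genes with low counts were removed (edgeR filterByExpr over the 24 groups, minimum count 10, minimum total 15), which left 15470 of 19324 genes. 1 quasi-likelihood model (edgeR 4.0.16, R 4.3.3, TMM factors 0.857 to 1.125) with a coefficient per group was fitted to all 72 libraries. It gave 28 comparisons of groups and 6 differences of differences. p-values were adjusted over all tested genes by Benjamini-Hochberg, and calls are at 0.05. The test was tried on simulated counts for 1 comparison only, WT at 20 h with DMSO against 0 h. Neither the model of all 24 groups nor the differences of differences were simulated. Levels are CPM with TMM factors, per kilobase of GENCODE 29 exons where genes are compared. Libraries were set apart where a chi-square of their counts against both other replicates exceeded 20 per gene. No replicate pair agreed within sampling noise (lowest chi-square 3.598 per gene over 72 pairs). Counting error alone is smallest in the deepest libraries, and the fewest counts behind a printed level are 65.

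Alternatives were RLE size factors, DESeq2 1.42.0, no low-count filter, each replicate number left out, the replicate number as a block and, chosen after seeing the data, leaving out the 5 libraries that stand apart. Whether replicate numbers pair samples was checked by correlating deviations from group means between same-numbered samples. All 3 correlations exceeded 0.1 in 4 of 28 comparisons, and in these any pairing is read from the data, not the labels: WT at 3 h against 0 h (0.796, 0.626 and 0.712) and at 4 h with DMSO against 0 h (0.809, 0.407 and 0.647), STK19_KO1 with ATRi against DMSO at 4 h (0.459, 0.316 and 0.224), and CSB_KO at 3 h against 0 h (0.11, 0.128 and 0.109). Replicate 1 stood apart in the WT groups at 0 h, 3 h and 4 h with DMSO. Deviations are taken from a mean of 3, so in WT a shared deviation of replicate 1 and a pairing of all 3 cannot be told apart. Of each pathway list, counts and up to 2 called genes with the largest change in each direction were named. For each of the 10 genes, the 2 genes with the highest correlation over group means were sought among genes of mean log2 CPM of at least 3.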

Additional observations from a re-analysis of the deposited data

Results flagged for a closer look

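The change between 2 conditions differed between lines in 43 cases by the interaction term of edgeR's quasi-likelihood test (Benjamini-Hochberg adjusted p under 0.05). Each value is the log2 change in the knockout minus that in WT, and WT libraries are shared by all of them. For STK19 it is the mean change of the 2 clones minus that in WT.

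For the change from 0 h to 3 h after UV in CSB_KO, the Sprouty and SPRED genes differed from WT by -0.53 (SPRY2), 0.43 (SPRY4) and -0.45 (SPRED2). The phosphatases differed by -0.41 (DUSP4) and -0.33 (DUSP5), and ETV4 and PHLDA1 by 0.43 and -0.58. In the mean of the STK19 clones the values were -0.18 (SPRY2), 1.86 (SPRY4), 0.56 (SPRED1) and 0.69 (SPRED2). There DUSP5 differed by 0.57, DUSP6 by 0.46, ETV4 by 0.37, ETV5 by 1.05 and PHLDA1 by -1.19. Without replicate 1 of WT at 3 h, SPRY2 in the STK19 clones (-0.18, adjusted p = 0.0524) and ETV4 in CSB_KO (0.34) and in the STK19 clones (0.28) lost their call, and DUSP5 in CSB_KO did so without replicate 1 of WT at 0 h (-0.29). Leaving out a replicate number in all groups ended the calls of SPRY4, SPRED2, DUSP4, DUSP5 and ETV4 in CSB_KO and of SPRY2, SPRED1 and ETV4 in the STK19 clones for at least 1 number.

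For the change from 0 h to 20 h with DMSO in CSB_KO, SPRY2 differed from WT by -0.85, SPRY4 by 1.54, SPRED1 by -1.31 and SPRED2 by -1.28. DUSP4 differed by -0.22, DUSP6 by 0.42, ETV4 by -0.29, ETV5 by -0.23 and PHLDA1 by 0.74. Without replicate 1 of WT at 0 h the calls of DUSP4 (-0.17, adjusted p = 0.118) and ETV4 (-0.23, adjusted p = 0.135) were lost. In the STK19 clones SPRY4 differed by 2.05, SPRED1 by -0.42, SPRED2 by -0.24, DUSP4 by 0.34, DUSP5 by 0.58, ETV5 by 1.27 and PHLDA1 by -0.26. The PHLDA1 call was lost with RLE size factors (adjusted p = 0.0672), DESeq2 (0.0903), no low-count filter (0.147) and whichever replicate number was left out (0.0712, 0.0783 and 0.211). SPRED2 in the STK19 clones lost its call without the filter (adjusted p = 0.11) and, like SPRED1, without number 2 or 3. In CSB_KO, DUSP4, ETV4 and ETV5 lost theirs with RLE size factors (adjusted p = 0.168, 0.147 and 0.0849) and DESeq2.

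For ATRi against DMSO at 20 h in CSB_KO, SPRY2 differed from WT by 0.18, SPRY4 by 0.27, DUSP6 by 0.89, ETV4 by 1.18, ETV5 by 0.47 and PHLDA1 by 0.43. In the STK19 clones SPRY4 differed by 0.75, DUSP5 by 0.43, DUSP6 by 0.94, ETV4 by 0.64 and ETV5 by 0.44. In CSB_KO, SPRY2 and SPRY4 lost their call with RLE size factors (adjusted p = 0.088 and 0.0723) and without the low-count filter (0.0791 and 0.071), and also without replicate number 2 (0.594 and 0.156).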

How the results depend on the processing

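Under the alternatives run, 0 of the 247 called gene results changed sign, 41 lost their call somewhere (largest log2 value 0.557) and 13 uncalled ones gained one. The count of called members for ATRi against DMSO at 4 h (6) was 3 without the low-count filter and 1 to 3 when a replicate number was left out. The differences from WT in the change at 3 h (16) fell to between 8 and 14, and those at 20 h (16) to between 10 and 14 (15 without replicate 1 of WT at 0 h), when a replicate number was left out. The other member counts, each summed over the lines of a comparison, stayed within 1.5 times. Single lines moved more: beside ATRi at 4 h, this held for ATRi at 20 h in STK19_KO2 (9, against 4 and 3 without replicate number 2 and 3), the change at 3 h in CSB_KO minus WT (7, against 2 and 3) and the change at 20 h in the STK19 clones minus WT (7, against 4 and 4). Results that did not pass the test changed sign in 85 cases over all alternatives, and the cause was not tested. Those of values printed in the text are given here. With RLE size factors, PHLDA1 with ATRi at 20 h in WT was 0.014 and DUSP6 in STK19_KO2 0.026, and with DESeq2 they were 0.015 and 0.027. Over the fits that left out replicates, PHLDA1 ran from -0.044 to 0.007, DUSP6 from -0.040 to 0.052, ETV4 at 3 h in WT from -0.059 to 0.096, and ETV5 at 3 h in STK19_KO1 from -0.028 to 0.038. At 20 h in WT, SPRED1 ran from -0.079 to 0.007, SPRED2 from -0.012 to 0.037 and ETV5 from -0.066 to 0.044, and the CSB_KO difference of SPRED2 with ATRi from -0.238 to 0.003. Without replicate 1 of WT at 0 h, ETV4 at 3 h in WT was -0.059 and SPRED1 at 20 h in WT 0.007, which was 0.005 without all 5 libraries that stand apart.

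Counts over all genes moved more. For ATRi at 4 h, WT had 411 called genes (39 to 851 when a replicate number was left out), CSB_KO 460 (77 to 708), STK19_KO1 140 (at fewest 36) and STK19_KO2 34 (10 to 58). CSB_KO against WT at 0 h had 5381 (3354 without replicate 2), STK19_KO2 against STK19_KO1 5136 (3129), ATRi at 20 h in CSB_KO 4876 (2662), and the differences from WT at 3 h 1513 in CSB_KO (492) and 4201 in the STK19 clones (1796). The median of all genes moved by at most 0.084 between scalings.

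With the replicate number as a block (replicate block), 331 of 340 gene results kept their direction and side of the threshold, 0 calls were lost and 6 gained (of the comparisons with such correlations, only that of SPRED1 in the change at 3 h in CSB_KO minus WT, adjusted p = 0.0454), and no member count moved by over 1.5 times. Deviations of samples with the same number correlated between -0.302 and 0.809 (median 0.0972, 84 pairs), and all 3 numbers exceeded 0.1 in 4 of 28 comparisons. In the other 24 the samples share only a number. The block was a shift per number common to all 4 lines. It cannot take up a pairing that holds in some lines only, so the kept calls do not test the comparisons with such correlations. Fits without each of the 72 libraries singly were not run. With CPM on library totals, 85 of 240 levels moved by over 1 SD.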
